A study of Mus musculus with 7 samples.

Results

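p53 and its regulators and target genes, 35 genes in all, were followed in alveolar macrophages, which patrol and clear the airspaces, from Suz12 cKO and Wild type marrow chimeras. The 35 members were a list of symbols chosen with earlier results of these data known and matched by Entrez number through RefSeq. All 35 were found among the 27179 genes of the count table and passed the filter on low counts, which left 14436 genes for testing. p53 is a transcription factor that DNA damage and other stresses stabilise by releasing it from its inhibitors Mdm2 and Mdm4. It then raises genes that halt division, repair DNA, restrain growth or start cell death, and Mdm2 is among its targets, which closes a feedback loop. Much of its activity is set at the level of the protein, so the level of Trp53 RNA need not follow it. Cdkn1a, its best-known arrest target, is not counted among the members and is described beside them.

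RNA came from alveolar macrophages sorted by flow cytometry from lungs of lethally irradiated C57BL/6-Ly5.1 recipients. In the Suz12 cKO group (3 libraries) the recipients received 90% Suz12 cKO Ly5.2 marrow, and in the Wild type group (4 libraries) 90% wild type Ly5.2 marrow. In both groups the remaining 10% was wild type Ly5.1 marrow. Suz12 is a core subunit of the polycomb repressive complex PRC2, which silences genes through methylation of histone H3. Irradiation and transplantation were thus shared by both groups; the sources used here do not give the age of the mice, the Cre line, the Suz12 exons deleted or whether competitor or host cells were gated out.

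Library totals lay between 48104653 and 79281431 counts. Suz12 reached 22.1, 23.6 and 15.1 CPM (counts per 1000000 after TMM scaling) in the Suz12 cKO libraries, against 56.5, 56.3, 73.9 and 68.9 CPM in the Wild type libraries, so the groups were separate with Suz12 cKO lower (log2 fold change -1.65, SE 0.18, edgeR adjusted p = 0.00134). All 12 alveolar macrophage markers examined, with Chil3 and Itgax among them, were detected in every library. Their summed level was 33594 to 38887 CPM in Suz12 cKO and 27446 to 32210 CPM in Wild type. Of these 12, 6 were called higher in Suz12 cKO and 1 lower (edgeR adjusted p under 0.05). The shares over all tested genes were 6.28% higher and 4.02% lower. Haemoglobin RNA set 3 libraries apart: its sum per 1000000 unscaled counts was 146 and 108 for Suz12 cKO replicates 1 and 2 and 39.7 for Wild type replicate 2. In the remaining libraries it was 1.94 for Suz12 cKO replicate 3 and between 2.10 and 3.72 for the other Wild type replicates. The same 3 libraries held the highest summed levels of 15 stress and dissociation genes such as Fos and Nr4a1, with 9765 and 11497 CPM for Suz12 cKO replicates 1 and 2 and 13223 CPM for Wild type replicate 2. The other libraries stood at 5793 CPM in Suz12 cKO replicate 3 and 3324 to 4024 CPM in Wild type. Neutrophil markers summed to 127 to 178 CPM in Suz12 cKO and 69.1 to 92.5 CPM in Wild type. Of these 8 markers, 5 were tested and 3 called higher, against 6.28% of all tested genes, while Ly6g and Camp were at 0 in every library. Markers of monocytes and interstitial macrophages summed to 5165 to 6999 CPM in Suz12 cKO and 1954 to 3214 CPM in Wild type. Of these 9 markers, 3 were called higher, against 6.28% of all tested genes. The 7 lymphocyte markers summed to 0.252 to 9.14 CPM in Suz12 cKO and 0.622 to 4.17 CPM in Wild type. Epithelial markers summed to 113 to 148 CPM in Suz12 cKO and 47.6 to 141 CPM in Wild type, endothelial markers to 4.25 to 8.92 CPM in Suz12 cKO and 0.272 to 14.6 CPM in Wild type, and fibroblast markers to 0 to 4.29 CPM in Suz12 cKO and 0 to 20.9 CPM in Wild type, with Tcf21 at 0 in every library. In these 3 lists the highest Wild type value was that of replicate 2. The part of any of these in the results below was not tested, except where values within the sets of libraries are given.

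Of the 35 members, 10 rose in Suz12 cKO and 1 fell, and 24 were not called (edgeR quasi-likelihood test, adjusted p under 0.05 over all tested genes). The background was 6.28% of all tested genes called higher and 4.02% called lower. The members' count of 10 exceeded the background share for increases, while 1 of 35 for decreases was near it. Because the members were chosen with earlier results of these data known, this excess is a description and was not tested. The median log2 fold change over the members was 0.41, against 0.00 over all tested genes, and 27 of the 35 lay above 0. In 16 members each Suz12 cKO library lay above each Wild type library, a pattern found in 14.1% of all tested genes, and in 0 members below (11.5% of all). By role, 4 of 12 genes of apoptosis and death receptors rose, 3 of 5 of growth and cell cycle control, 1 of 4 of the sestrins and mTORC1 inhibition, 2 of 5 other effectors, 0 of 6 of DNA repair and nucleotide supply, and 0 of 3 among p53 and its negative regulators. Whether the roles differed was not tested. Because whole sorted populations were measured, a change in the share of cells that express a gene and a change in RNA per cell cannot be told apart.

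The members' count was set against its own background in each alternative. RLE scaling gave 10 members higher and 1 lower (6.46% and 3.63% of all tested genes), as did testing without the low count filter (4.79% and 2.86%) and a haemoglobin term (6.93% and 4.15%). DESeq2 called 14 members higher and 1 lower (9.48% and 5.62%). A replicate block on replicates 1 to 3 gave 8 and 0 (3.84% and 1.83%), and the same libraries without the block, which is also the fit without Wild type replicate 4, gave 8 and 0 (4.78% and 2.87%). Leaving out Wild type replicate 1, 2 or 3 gave 8, 14 and 6 members higher (4.57%, 10.7% and 3.82%) and 0, 1 and 0 lower (2.1%, 6.27% and 2.22%). Leaving out Suz12 cKO replicate 1, 2 or 3 gave 7, 5 and 4 members higher (3.2%, 3.02% and 3.73%) and 0, 0 and 1 lower (2.06%, 1.81% and 3.18%). Zmat3, Aen, Ccng1 and Tnfrsf10b were called higher in each of the 7 fits that left out a library.

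**Figure D1:**
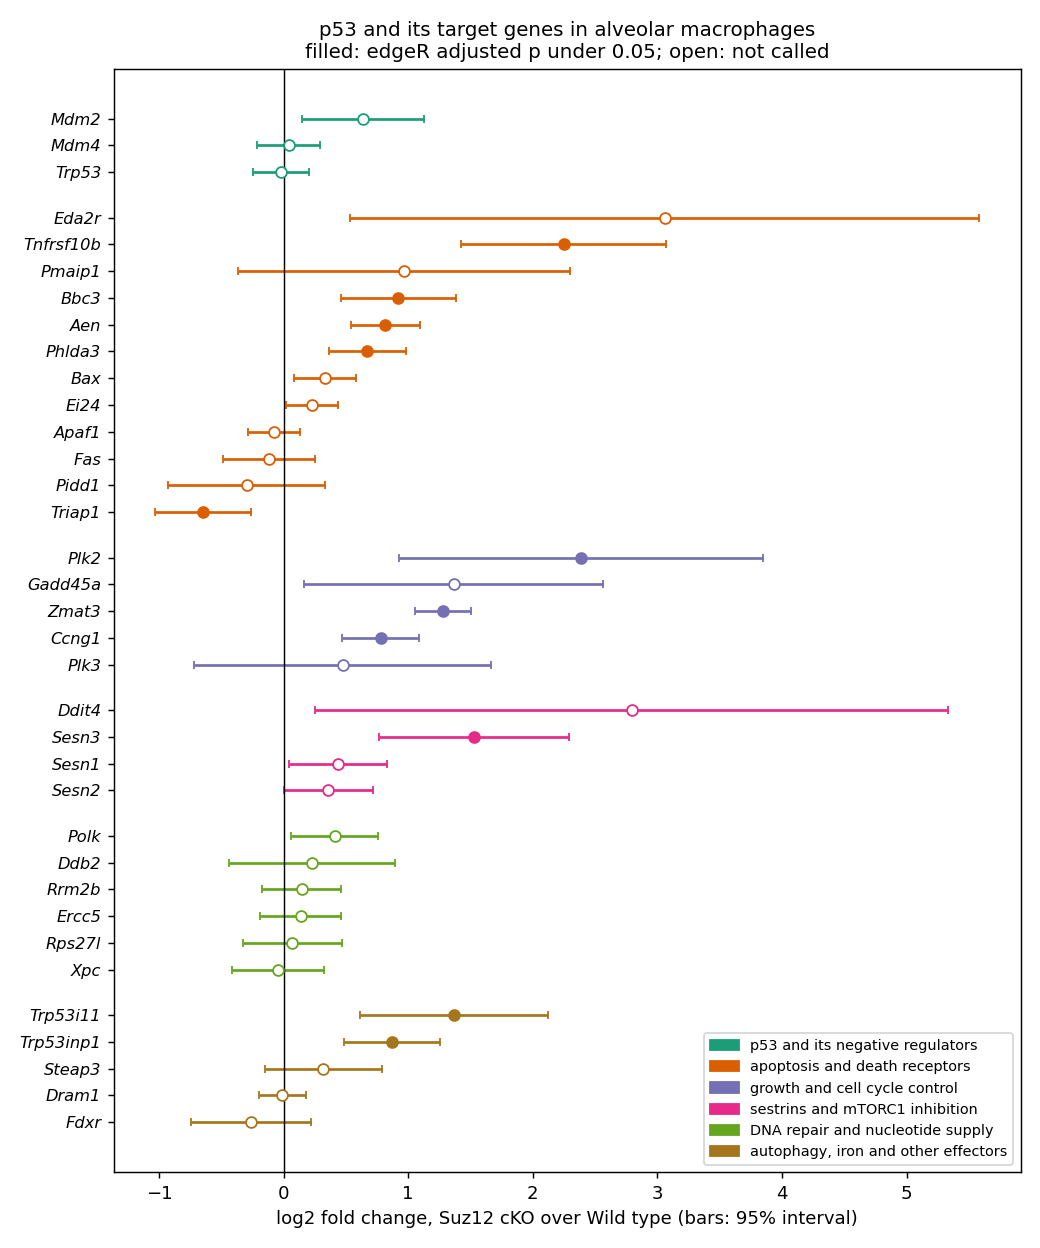
Log2 fold changes of the 35 members (x axis, Suz12 cKO over Wild type, bars for 95% intervals), grouped by role down the page; filled points passed an adjusted p under 0.05. The 10 increases run from 0.67 for Phlda3 to 2.39 for Plk2, Triap1 is the called decrease at -0.65, and the widest intervals are those of Eda2r and Ddit4.

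To show what some of the members share in sequence, RefSeq promoters (GRCm38.p6, 250 bases before to 50 after each start) were searched on both strands for the 10-letter p53 decamer consensus, which equals its own reverse complement, and for a full site of 2 adjoining decamers (at most 1 base between them, at most 2 mismatches in all, none in the 4 central letters of a decamer). Promoters were matched for 28 members; Ddb2, Zmat3, Tnfrsf10b, Rrm2b, Pmaip1, Trp53inp1 and Xpc had no entry. A decamer was found in 10 of 28 matched members (35.7%), against 9.55% of the 27025 genes with a RefSeq promoter, and a full site in 2 members, Bax and Rps27l, against 0.377% of genes. Of the 10, Ccng1 and Aen were among the genes that rose (2 of 7 matched), and 8 were among the 20 matched members that were not called: Bax, Ei24, Gadd45a, Mdm2, Polk, Rps27l, Sesn1 and Trp53. A match describes letters in this window and is not evidence of binding. Of the windows shown here for their decamers or full sites, in capitals and 5′ to 3′ on the strand of the gene, those of Ccng1 and Aen belong to called genes. Those of Rps27l and Bax hold the full sites, and those of Mdm2 and Trp53 belong to the core of the pathway.
Ccng1 (chr11:40755437-40755496, minus strand): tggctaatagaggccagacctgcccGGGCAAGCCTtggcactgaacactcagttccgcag
Aen (chr7:78895927-78895956, plus strand): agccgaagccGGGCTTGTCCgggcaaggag
Rps27l (chr9:66946271-66946340, plus strand): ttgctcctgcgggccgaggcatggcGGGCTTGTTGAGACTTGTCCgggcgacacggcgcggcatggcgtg
Bax (chr7:45467054-45467124, minus strand): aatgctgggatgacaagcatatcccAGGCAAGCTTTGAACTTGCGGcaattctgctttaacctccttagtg
Mdm2 (chr10:117710910-117710969, minus strand): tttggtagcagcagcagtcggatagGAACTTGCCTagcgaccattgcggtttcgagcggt
Trp53 (chr11:69580259-69580318, plus strand): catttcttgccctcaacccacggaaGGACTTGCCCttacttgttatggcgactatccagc

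Trp53 RNA itself did not differ detectably between genotypes. Trp53 (Entrez 22059, chromosome 11, 69580348 to 69591873 in GRCm38) stood at 51.6, 44.3 and 43.3 CPM in Suz12 cKO, against 48.9, 44.1, 45.7 and 49.2 CPM in Wild type. The groups overlapped and averaged 46.4 ± 4.57 CPM in Suz12 cKO and 47.0 ± 2.49 CPM in Wild type (SD, n = 3 and n = 4), for a log2 fold change of -0.02 with a 95% interval of -0.24 to 0.21 (edgeR adjusted p = 0.946). Mdm4, which masks the activation domain of p53, averaged 50.2 ± 2.74 CPM in Suz12 cKO and 48.8 ± 5.54 CPM in Wild type (log2 fold change 0.04, interval -0.21 to 0.29, edgeR adjusted p = 0.884); it was at 47.0, 52.0 and 51.5 CPM in Suz12 cKO, against 50.5, 41.6, 48.2 and 54.9 CPM in Wild type. RefSeq lists a pseudogene of each of Trp53 and Mdm4 that is not a row of the table, so reads shared with it are uncertain. Mdm2, the ubiquitin ligase that marks p53 for degradation, stood at 110, 142 and 97.8 CPM in Suz12 cKO, against 61.1, 108, 62.6 and 68.3 CPM in Wild type. Wild type replicate 2 lay among the Suz12 cKO values and the other 3 Wild type libraries below all of them. The log2 fold change of Mdm2 was 0.64 (interval 0.15 to 1.12, edgeR adjusted p = 0.104). Without Wild type replicate 2 it was 0.85 (SE 0.14, edgeR adjusted p = 0.00492).

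Zmat3, a zinc finger RNA-binding protein that regulates splicing and is a direct p53 target, had the smallest p-value of the members. Zmat3 (Entrez 22401, chromosome 3, 32334792 to 32365665) was at 86.6, 88.5 and 102 CPM in Suz12 cKO, against 38.5, 35.7, 36.7 and 41.8 CPM in Wild type. The Wild type libraries lay close together, and the lowest Suz12 cKO library stood far above the highest of them. The log2 change was 1.28 (SE 0.10, interval 1.06 to 1.501, edgeR adjusted p = 4.5e-04). Ccng1, the atypical cyclin G1 that acts with the phosphatase PP2A in feedback on p53, was more abundant. Ccng1 (Entrez 12450, chromosome 11, 40748552 to 40755309) stood at 312, 385 and 446 CPM in Suz12 cKO, against 228, 206, 253 and 200 CPM in Wild type, with no overlap. Its log2 change was 0.78 (SE 0.14, edgeR adjusted p = 0.00868). Both genes were called when any 1 of the 7 libraries was left out.

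Of the polo-like kinase genes, Plk2, a p53 target that regulates centriole duplication, was at 96.2, 90.4 and 50.6 CPM in Suz12 cKO, against 7.94, 39.5, 6.47 and 6.62 CPM in Wild type (Entrez 20620, chromosome 13, 110395044 to 110400844). Ranges did not overlap, but Wild type replicate 2 lay 5.63-fold above the mean of the other Wild type libraries. The log2 change was 2.39 (SE 0.64, edgeR adjusted p = 0.0491), and 3.48 (edgeR adjusted p = 1.5e-04) without that library. Leaving out any other library gave a log2 fold change of 2.12 to 2.61 and ended the call (edgeR adjusted p from 0.0729 to 0.14). Plk3, a stress-responsive relative, was highest in libraries of both genotypes, with 446, 560 and 182 CPM in Suz12 cKO and 198, 603, 138 and 201 CPM in Wild type (log2 fold change 0.47, interval -0.72 to 1.67, edgeR adjusted p = 0.658). Gadd45a, which restrains the mitotic kinase Cdk1 and takes part in stress signalling, was at 18.02, 35.6 and 9.07 CPM in Suz12 cKO, against 5.48, 16.0, 6.27 and 4.70 CPM in Wild type. It was not called (log2 fold change 1.36, interval 0.16 to 2.56, edgeR adjusted p = 0.149). In GENCODE, exons of Gadd45a and Plk3 overlap those of a counted gene on the opposite strand over 19.1% and 3.32% of their length, and the sources used here do not state whether counting used strand.

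**Figure D2:**
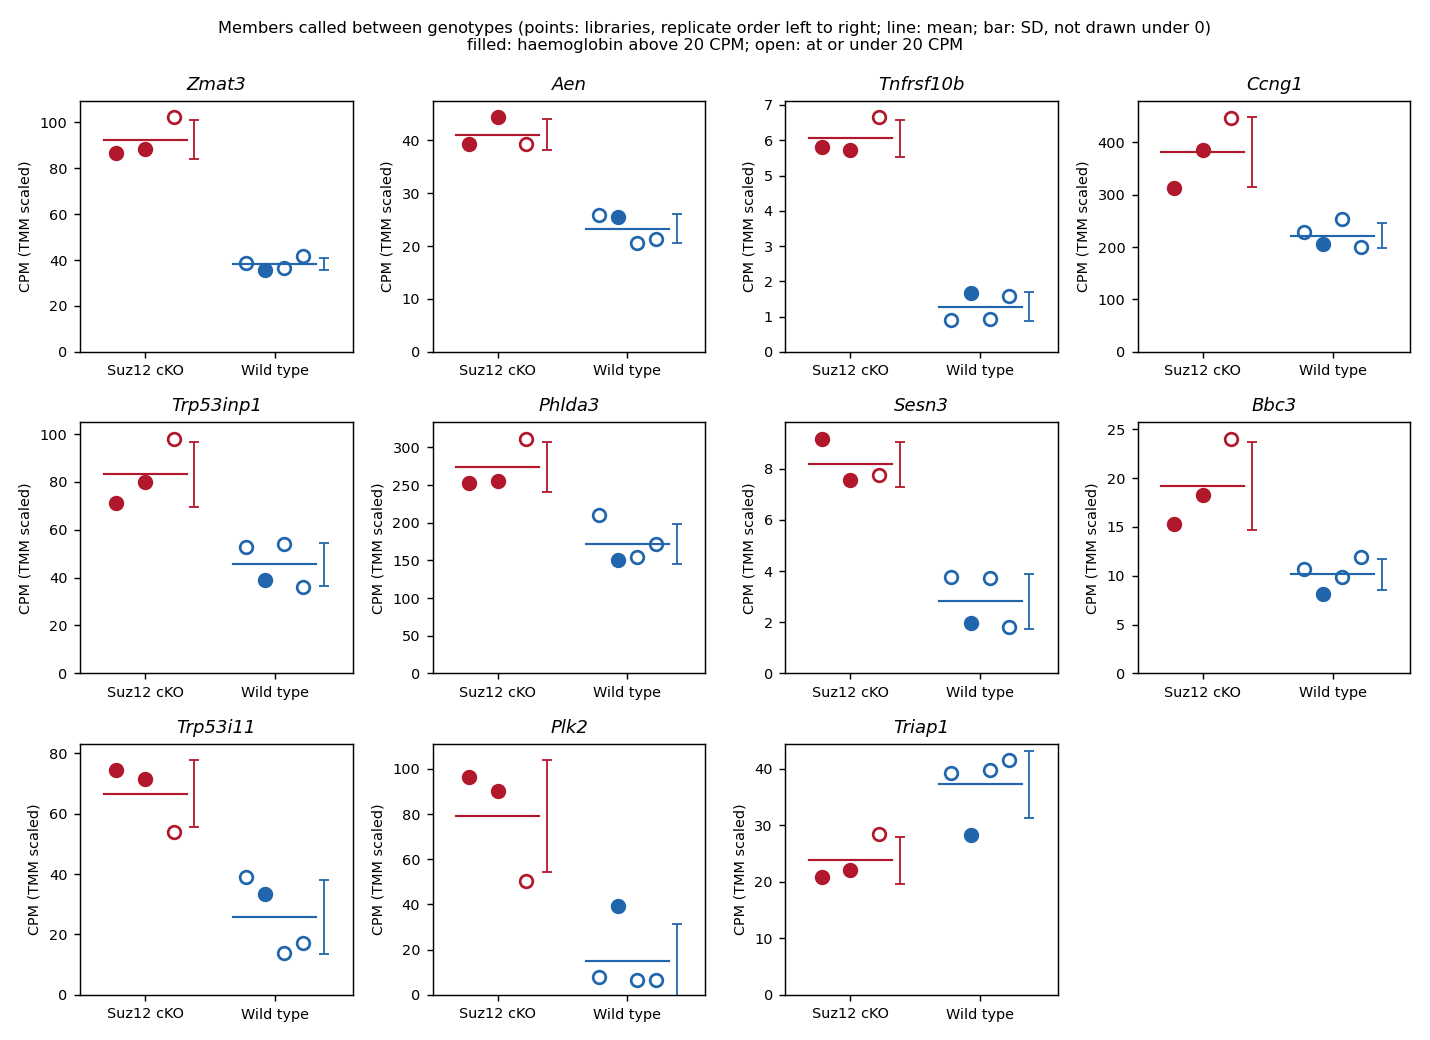
CPM of the 11 called members in each library (y axis, from 0), Suz12 cKO left and Wild type right, with the group mean as a line and its SD as a bar; filled points are the 3 libraries above 20 CPM of haemoglobin. The groups are separate for the 10 members that rose, while for Triap1 the highest Suz12 cKO library (28.5 CPM) and the lowest Wild type library (28.3 CPM) overlap.

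Of the 12 genes of apoptosis and death receptors, 4 rose and 1 fell, against 6.28% higher and 4.02% lower over all tested genes. The decrease, of Triap1, was called in 2 of the 7 fits that left out a library. Aen, an exonuclease that p53 induces during apoptosis (Entrez 68048, chromosome 7, 78895927 to 78911209), was at 39.3, 44.4 and 39.3 CPM in Suz12 cKO, against 25.8, 25.5, 20.6 and 21.2 CPM in Wild type. The groups did not overlap and the log2 change was 0.82 (SE 0.12, edgeR adjusted p = 0.00451). Tnfrsf10b, the receptor for the death ligand TRAIL (Entrez 21933, chromosome 14, 69767472 to 69784411), was scarce in both groups, at 5.81, 5.71 and 6.66 CPM in Suz12 cKO and 0.909, 1.67, 0.937 and 1.59 CPM in Wild type. The groups were well apart, for a log2 fold change of 2.25 (SE 0.36, edgeR adjusted p = 0.00635). Like Zmat3 and Ccng1, Aen and Tnfrsf10b were called when any 1 library was left out.

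Phlda3, which encodes an inhibitor of the survival kinase Akt (Entrez 27280, chromosome 1, 135766085 to 135769134), stood at 253, 256 and 312 CPM in Suz12 cKO, against 210, 150, 155 and 172 CPM in Wild type. All Suz12 cKO values were higher, with a log2 fold change of 0.67 (SE 0.14, edgeR adjusted p = 0.0165). Leaving out Suz12 cKO replicate 3 or Wild type replicate 3 ended the call (edgeR adjusted p = 0.0591 and 0.053). Bbc3, the BH3-only killer protein Puma (Entrez 170770, chromosome 7, 16308398 to 16318334), was at 15.3, 18.3 and 24.1 CPM in Suz12 cKO, against 10.7, 8.11, 9.83 and 11.9 CPM in Wild type. Its ranges were separate and its log2 fold change 0.92 (SE 0.20, edgeR adjusted p = 0.024); the call ended without Suz12 cKO replicate 2 or 3 or Wild type replicate 1 or 3 (edgeR adjusted p from 0.0543 to 0.0834). Triap1, a p53-inducible gene whose small mitochondrial product opposes apoptosis, went the other way. Triap1 (Entrez 69076, chromosome 5, 115341231 to 115343553) had 20.8, 21.99 and 28.5 CPM in Suz12 cKO and 39.2, 28.3, 39.7 and 41.5 CPM in Wild type. Its log2 change was -0.65 (SE 0.17, edgeR adjusted p = 0.0445). The call held only without Wild type replicate 2 or Suz12 cKO replicate 3 (edgeR adjusted p = 0.00788 and 0.0362); without any of the other 5 libraries the adjusted p was 0.0988 to 0.151.

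The other 7 death genes were not called. Bax, the pore-forming effector of mitochondrial apoptosis, was at 90.4, 103 and 121 CPM in Suz12 cKO, against 84.4, 87.0, 79.8 and 80.9 CPM in Wild type, without overlap but with a small difference (log2 fold change 0.33, interval 0.09 to 0.58, edgeR adjusted p = 0.09). Ei24, an endoplasmic reticulum protein gene first described as p53-induced, had separate ranges as well, 90.7 to 109 CPM in Suz12 cKO against 80.1 to 87.0 CPM in Wild type (log2 fold change 0.23, edgeR adjusted p = 0.172). The receptor gene Eda2r was scarce in Wild type, at 0.871, 1.198, 0.255 and 0 CPM, against 2.05, 3.47 and 9.12 CPM in Suz12 cKO. Its log2 fold change of 3.06 carried an interval of 0.53 to 5.58 (edgeR adjusted p = 0.128). Pmaip1, the BH3-only protein Noxa, stood at 95.1, 114 and 38.8 CPM in Suz12 cKO, against 18.7, 99.1, 26.6 and 25.03 CPM in Wild type, so that Wild type replicate 2 lay inside the Suz12 cKO range (log2 fold change 0.97, interval -0.36 to 2.30, edgeR adjusted p = 0.369). Apaf1, the apoptosome scaffold, Fas, the receptor for Fas ligand, and Pidd1, a caspase-2 adaptor, overlapped between genotypes. Their log2 fold changes were -0.08 (interval -0.28 to 0.13), -0.12 (-0.49 to 0.25) and -0.30 (-0.92 to 0.33).

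All 4 genes that restrain mTORC1, the growth-promoting kinase complex, had separate ranges with Suz12 cKO above Wild type, against 14.1% of all tested genes. Of these 4, 1 was called higher, against 6.28% of all tested genes. Sesn3, a sestrin that relays amino acid and oxidative stress (Entrez 75747, chromosome 9, 14276301 to 14326134), was at 9.18, 7.57 and 7.75 CPM in Suz12 cKO, against 3.78, 1.97, 3.73 and 1.81 CPM in Wild type. Its log2 change was 1.53 (SE 0.34, edgeR adjusted p = 0.023), with an adjusted p of 0.0931, 0.069 and 0.0568 without Suz12 cKO replicate 1, 2 or 3. Its relatives differed less: Sesn1 was at 17.2, 14.3 and 14.9 CPM in Suz12 cKO against 10.97, 14.0, 10.3 and 10.3 CPM in Wild type (log2 fold change 0.44, edgeR adjusted p = 0.156). Sesn2 spanned 30.0 to 33.0 CPM in Suz12 cKO and 18.5 to 28.3 CPM in Wild type (log2 fold change 0.36, edgeR adjusted p = 0.201). Whether the sestrins differed from each other in their change was not tested. Ddit4, also known as REDD1, stood at 6.52, 6.82 and 6.55 CPM in Suz12 cKO, against 0.510, 2.90, 0.392 and 0 CPM in Wild type. Its Suz12 cKO values were close together and its Wild type values were not, and the log2 fold change of 2.79 had an interval of 0.26 to 5.33 (edgeR adjusted p = 0.162).

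None of the 6 genes of DNA repair and nucleotide supply was called, each overlapped between genotypes, and 1 had an unadjusted p under 0.05 (edgeR quasi-likelihood test). Of all 14436 tested genes, 6.28% were called higher and 4.02% lower, 10752 overlapped and 3531 had an unadjusted p under 0.05 in that test. For 6 genes, no call is near the background. Ddb2, a damage sensor of nucleotide excision repair, averaged 4.68 ± 0.302 CPM in Suz12 cKO and 3.99 ± 0.962 CPM in Wild type (log2 fold change 0.23, interval -0.43 to 0.89). Xpc, another such sensor, averaged 33.7 ± 5.94 CPM in Suz12 cKO and 34.7 ± 5.10 CPM in Wild type (log2 fold change -0.05, interval -0.41 to 0.32). In GENCODE, 23.8% of the exon length of Ddb2 overlaps Acp2 on the opposite strand. Reads of Ddb2 in that shared stretch cannot be told apart from those of Acp2 without strand. Ercc5, a repair endonuclease, Rrm2b, the p53-induced subunit of ribonucleotide reductase, and Rps27l, a ribosomal protein paralog, had log2 fold changes of 0.14, 0.15 and 0.07, with intervals of -0.19 to 0.46, -0.17 to 0.46 and -0.33 to 0.47. The translesion polymerase gene Polk was at 22.9, 31.4 and 26.2 CPM in Suz12 cKO, against 19.9, 23.6, 20.0 and 17.4 CPM in Wild type (log2 fold change 0.41, edgeR adjusted p = 0.139). Rps27l, whose full site has 1 mismatch against 2 in that of Bax, overlapped at 43.5, 67.5 and 74.0 CPM in Suz12 cKO against 67.6, 57.3, 55.7 and 54.2 CPM in Wild type.

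Of the 5 remaining effectors, Trp53inp1 and Trp53i11 rose. Trp53inp1, a nuclear and autophagosomal protein that enhances p53 activity (Entrez 60599, chromosome 4, 11156441 to 11174379), was at 71.3, 80.0 and 98.2 CPM in Suz12 cKO, against 52.6, 39.1, 54.1 and 36.2 CPM in Wild type. The log2 change was 0.87 (SE 0.17, edgeR adjusted p = 0.0146), and the adjusted p was 0.0503 and 0.0563 without Suz12 cKO replicate 2 or 3. Trp53i11, a p53-inducible membrane protein gene (Entrez 277414, chromosome 2, 93187349 to 93201757), stood at 74.5, 71.6 and 53.9 CPM in Suz12 cKO, against 38.9, 33.3, 13.9 and 17.2 CPM in Wild type. All Suz12 cKO values were higher and the log2 change was 1.37 (SE 0.33, edgeR adjusted p = 0.0347), but the call ended without any Suz12 cKO library or Wild type replicate 3 or 4 (edgeR adjusted p from 0.0555 to 0.111). Dram1, a lysosomal membrane protein of autophagy, was level at 137 to 155 CPM in Suz12 cKO and 144 to 154 CPM in Wild type (log2 fold change -0.01, interval -0.20 to 0.18). Steap3, an iron reductase, and Fdxr, the ferredoxin reductase of iron-sulfur cluster formation, overlapped, with log2 fold changes of 0.32 (interval -0.15 to 0.79) and -0.26 (-0.74 to 0.22).

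A few members separated by library as well as, or more than, by genotype. In Mdm2, Pmaip1, Gadd45a and Plk3, 4 of 35 members, each of the 3 libraries above 20 CPM of haemoglobin lay above each of the other 4, against 8.6% of all tested genes, a share near the background. The summed stress and dissociation genes were highest in the same 3 libraries, as given above, and 9 of those 15 genes had the same order. Wild type replicate 2 lay 1.69-fold above the mean of the other Wild type libraries for Mdm2, 4.23-fold for Pmaip1, 2.92-fold for Gadd45a and 3.37-fold for Plk3. For Zmat3, Aen, Ccng1, Phlda3, Bbc3 and Trp53inp1 the same ratio lay between 0.75 and 1.13. For the other called increases it was 5.63 (Plk2), 1.46 (Tnfrsf10b), 1.42 (Trp53i11) and 0.63 (Sesn3). Ddit4 and Eda2r, not called and scarce in Wild type, had ratios of 9.66 and 3.19. The part of handling stress or of other cells in these values was not tested.

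**Figure D3:**
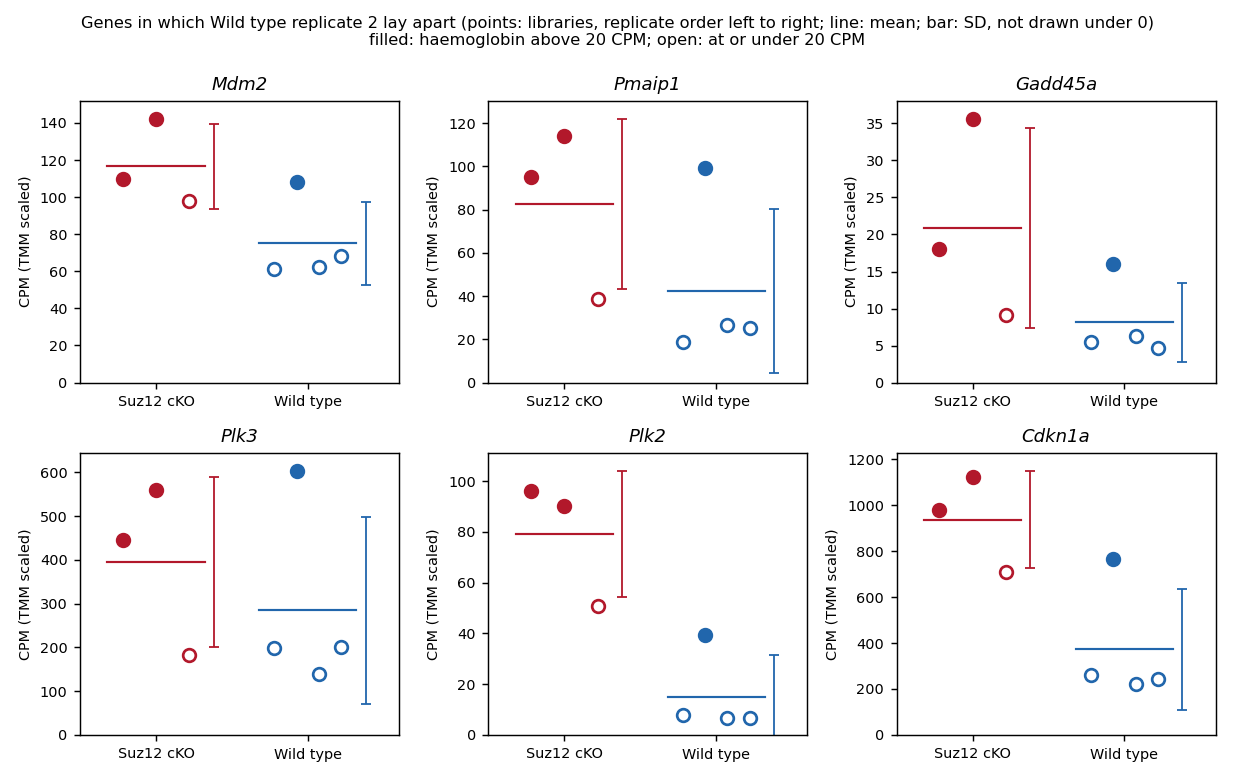
CPM of Mdm2, Pmaip1, Gadd45a, Plk3, Plk2 and Cdkn1a in each library (y axis, from 0), Suz12 cKO left and Wild type right, with mean and SD; filled points are the libraries above 20 CPM of haemoglobin. Wild type replicate 2, the filled point on the right, lies above the other 3 Wild type libraries in all 6 panels, at 603 CPM for Plk3 and 767 CPM for Cdkn1a.

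Genotypes were also set side by side within each set of libraries, where 1 genotype has a single library, so that the calls borrow their spread from the other genotype and have no replicate check of that library. Within the 4 libraries at or under 20 CPM of haemoglobin (Suz12 cKO replicate 3 against Wild type replicates 1, 3 and 4), 10 members were called higher and 0 lower, against 4.08% and 2.43% of 15093 tested genes. Within the 3 above it (Suz12 cKO replicates 1 and 2 against Wild type replicate 2), 8 were higher and 0 lower, against 4.73% and 2.08% of 15788 tested genes. Zmat3 had log2 fold changes of 1.38 and 1.30 in the 2 sets, Ccng1 0.96 and 0.76, Aen 0.79 and 0.72, Bbc3 1.14 and 1.05, Phlda3 0.79 and 0.76, Trp53inp1 1.03 and 0.95, Trp53i11 1.19 and 1.14, Tnfrsf10b 2.53 and 1.78, Sesn3 1.30 and 2.09, and Plk2 2.84 and 1.24. These 10 are the genes called higher over all 7 libraries, and the calls within each set were not the same. Those in the set low in haemoglobin RNA included Bax and Mdm2 and left out Sesn3 and Trp53i11. Those in the set high in it left out Aen and Bbc3. The 10 genes called over all 7 libraries lay above 0 in both sets. Their separate ranges over all 7 libraries already imply this, so the signs are no further check. Pmaip1 stood at 0.71 and 0.08, Gadd45a at 0.71 and 0.75, Mdm2 at 0.60 and 0.22, and Plk3 at 0.01 and -0.26. Whether any fold change differed between the sets was not tested.

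**Figure D4:**
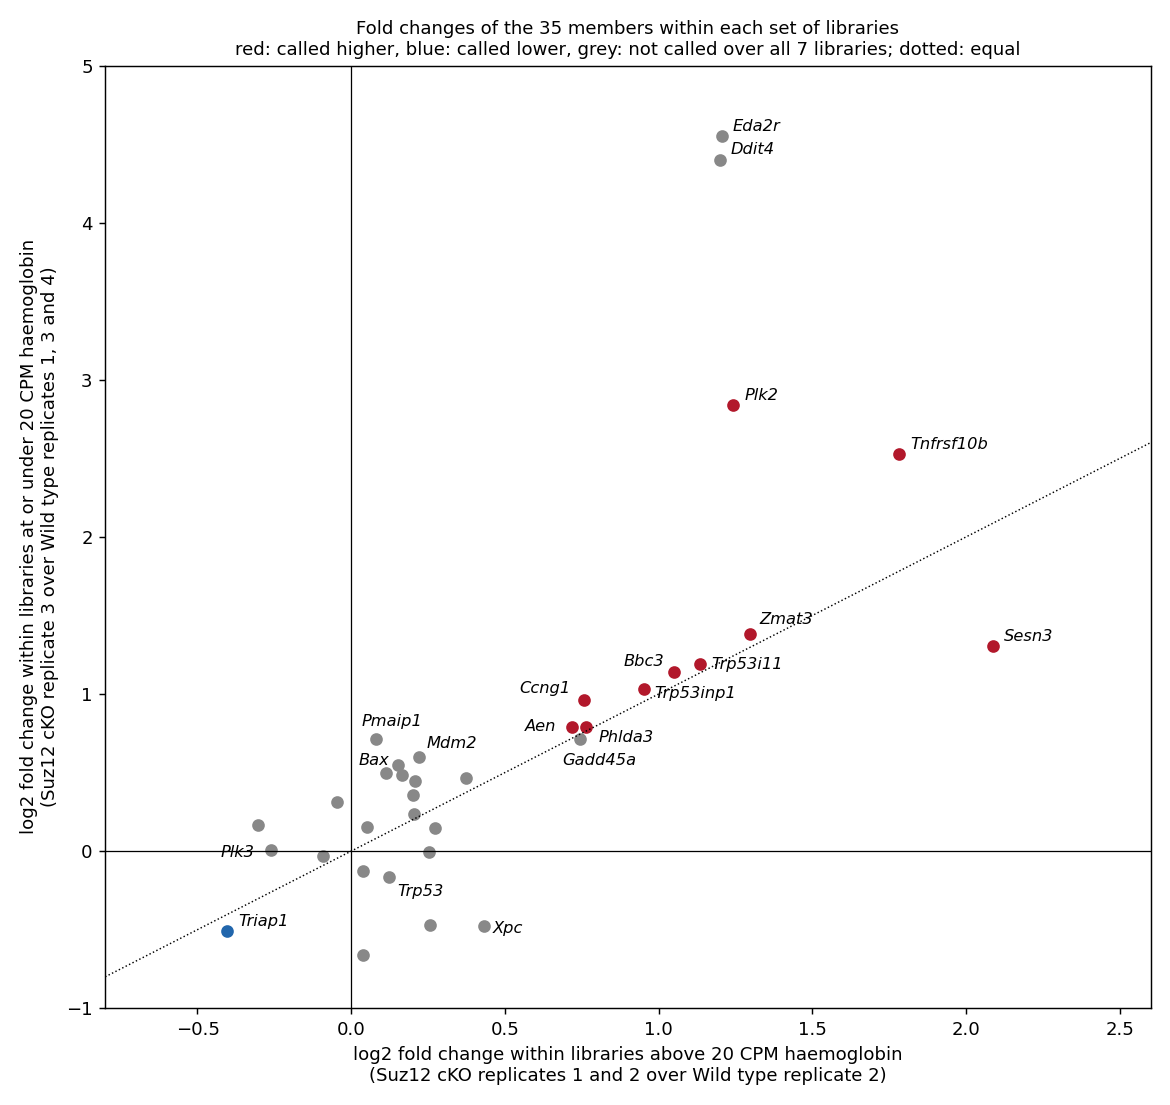
Log2 fold change of each of the 35 members within the 4 libraries at or under 20 CPM of haemoglobin (y axis) against that within the 3 libraries above it (x axis); red points were called higher and the blue point lower over all 7 libraries, and the dotted line marks equal values. The 10 red points lie above 0 on both axes, as their separate ranges over all 7 libraries imply. Zmat3 lies near the line at 1.38 and 1.30, and Plk3 near 0 at 0.01 and -0.26.

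Cdkn1a, which encodes the CDK inhibitor p21, was also high in Wild type replicate 2, 3.18-fold above the mean of the other Wild type libraries. It was at 979, 1124 and 709 CPM in Suz12 cKO, against 260, 767, 220 and 244 CPM in Wild type (log2 fold change 1.33, interval 0.37 to 2.29, edgeR adjusted p = 0.0846; 1.54 and 0.46 within the sets of libraries low and high in haemoglobin RNA). Cdkn2a, one product of which (Arf) sequesters Mdm2, was at 177, 163 and 171 CPM in Suz12 cKO, against 15.5, 16.4, 1.02 and 2.87 CPM in Wild type, a log2 fold change of 4.24 (SE 0.79, edgeR adjusted p = 0.0118). The counts do not separate Arf from the CDK inhibitor Ink4a.

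Of 26 other regulators and partners of p53, 24 were tested, 5 rose and 1 fell, against 6.28% higher and 4.02% lower over all tested genes, with a median log2 fold change of 0.01. Besides Cdkn2a, the increases with the smallest p-values were Hipk2, a kinase that phosphorylates p53, at 113 ± 13.4 CPM in Suz12 cKO against 60.0 ± 6.17 CPM in Wild type (log2 fold change 0.91, SE 0.12, edgeR adjusted p = 0.00246); Pml, the scaffold of nuclear bodies, at 30.7 ± 0.594 CPM in Suz12 cKO against 18.3 ± 0.952 CPM in Wild type (edgeR adjusted p = 0.00394); and Ppp1r13b, the p53 cofactor ASPP1, at 32.7 ± 2.65 CPM in Suz12 cKO against 20.5 ± 1.11 CPM in Wild type (edgeR adjusted p = 0.00699; SD, n = 3 and n = 4). The fifth was Trp53bp1, a DNA break adaptor (log2 fold change 0.43, edgeR adjusted p = 0.033), and the decrease was Chek2, a checkpoint kinase upstream of p53 (-0.96, edgeR adjusted p = 0.0182), both named after their values were seen. Trp63, a relative of Trp53, was at 0 in every library.

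Of 30 further p53 targets outside the members, 27 were tested, 6 rose and 2 fell, against the same background of 6.28% and 4.02%, with a median log2 fold change of 0.11. Ptp4a3, a phosphatase, averaged 40.5 ± 0.915 CPM in Suz12 cKO against 4.18 ± 2.06 CPM in Wild type (log2 fold change 3.27, SE 0.39, edgeR adjusted p = 0.00185). Abhd4, a lipid hydrolase, averaged 103 ± 8.65 CPM in Suz12 cKO against 63.6 ± 3.85 CPM in Wild type (edgeR adjusted p = 0.00284), and the semaphorin receptor gene Plxnb2 294 ± 17.0 CPM in Suz12 cKO against 172 ± 26.5 CPM in Wild type (edgeR adjusted p = 0.00712; SD, n = 3 and n = 4). The decreases were genes of DNA replication and the cell cycle: Pcna, the replication clamp, fell by 0.59 on the log2 scale (edgeR adjusted p = 0.0106), and E2f7, a repressor of cell cycle genes named after its values were seen, fell by 2.25 (edgeR adjusted p = 0.0114).

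Per length, the called members spanned most of the range of expression. On the RPKM scale (CPM per kilobase of summed exon length), Phlda3 averaged 186 in Suz12 cKO and 117 in Wild type and Ccng1 109 and 63.6, levels above 95.8% and 91.4% of tested genes in Wild type. Zmat3 was at 11.9 and 4.90 RPKM, Aen at 15.9 and 9.03, and Tnfrsf10b at 1.91 and 0.402, the last above 16.8% of tested genes. Trp53 itself stood at 24.8 and 25.2 RPKM. The highest member levels in Wild type were those of Rps27l (127 RPKM), Plk3 (120 RPKM), Phlda3 and Bax (95.5 RPKM), of which Phlda3 was called.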

How the data were processed

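The deposited values are whole-number gene counts that the authors obtained with featureCounts (genome mm10), per the submitters' processing notes. The sources used here do not state its version or the aligner, annotation, strand setting and treatment of multi-mapping reads. The libraries were TruSeq poly(A) libraries read as single-end reads of 85 bp, per the labels and the design text. The 7 deposited sample files hold the same counts as the series table. Count totals exceed the read numbers stated in the design text, and the sources used here do not say why. The table also holds each gene's summed exon length as deposited by the authors.

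Of 27179 genes, 25275 matched a RefSeq symbol by Entrez number (GRCm38.p6; unmatched genes held 0.829% of counts). filterByExpr (minimum count 10, minimum total 15) left 14436 genes. edgeR 4.0.16 (R 4.3.3) with TMM scaling and genotype as the sole term was used for the quasi-likelihood test, with Benjamini-Hochberg adjustment and a threshold of 0.05. SE is the size of the log2 fold change divided by the square root of F. CPM values are TMM scaled over the tested genes; intervals cover 95%. Counting depth is high, but PCR copies are not separated, so precision rests on the spread between libraries. The members and lists were chosen with earlier results of these data known; named genes are all members, with every library's value for those called, and the called genes with the 4 smallest p-values of each further list. A split at 20 CPM of haemoglobin came from those earlier results. On simulated Suz12 cKO against Wild type counts for 14436 genes, the test recovered 40% of 100 genes with 2-fold and 78% of 100 genes with 4-fold changes, with 7.81% false calls. The changed genes were drawn only from those above a floor on average expression. No haemoglobin split was built into the simulated libraries, so these shares may not hold for scarce genes or for genes that followed the split. Alternatives were RLE scaling, DESeq2 1.42.0, no filter, each library left out, a replicate block and the haemoglobin split. The libraries are biological replicates per the design text, and p-values measure the spread between them.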

Additional observations from a re-analysis of the deposited data

Results flagged for a closer look

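In 38 genes checked among the 4 Wild type libraries (the members, Suz12, Cdkn1a and Cdkn2a), 1 library lay far from the other 3 in 6. In each it was Wild type replicate 2, above the rest. Chance marks about 1 in 20 such groups, but all 38 genes were read in the same 4 libraries, so that rate is no benchmark for 6 in 1 library. The share over all tested genes was not worked out, so the 6 are a description of these genes. The value in that library was 108 CPM for Mdm2, 99.1 CPM for Pmaip1, 16.0 CPM for Gadd45a, 39.5 CPM for Plk2, 603 CPM for Plk3 and 767 CPM for Cdkn1a. The summed stress and dissociation genes of that library, 13223 CPM, were also the highest of the 7, and their part in these values was not tested. Without it Mdm2, Pmaip1, Gadd45a and Ddit4 were called higher in Suz12 cKO (log2 fold changes 0.85, 1.81, 1.92 and 4.40; edgeR adjusted p = 0.00492, 0.00908, 0.0174 and 0.0116), which made 14 members higher and 1 lower, against 10.7% and 6.27% of 14117 tested genes.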

How the results depend on the processing

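RLE scaling, no filter on low counts and the haemoglobin split as a term each gave 10 members higher and 1 lower; with DESeq2 there were 14 and 1, with Bax, Eda2r, Gadd45a and Mdm2 added, among 1457 genes called higher over the whole table. Leaving out 1 library in turn gave 4 to 14 members higher and 0 to 1 lower, and 447 to 1515 genes higher and 268 to 885 lower over the whole table; the fewest members were higher without Suz12 cKO replicate 3 (4), replicate 2 (5) or Wild type replicate 3 (6) and the most without Wild type replicate 2 (14). The call of Triap1 was lost, leaving 0 members lower, within the haemoglobin sets (log2 fold changes -0.51 in the low and -0.40 in the high set) and in replicates 1 to 3 with or without a replicate block (-0.60 in both), fits with fewer libraries, against -0.65 over all 7. Over the whole table, 367 genes were lower within the 4 libraries low in haemoglobin RNA and 328 within the 3 high in it.

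Same-numbered libraries had correlations of deviations of -0.0601, 0.235 and 0.204, and differently numbered ones -0.254 to 0.137. Both replicates 2 were above 20 CPM of haemoglobin and both replicates 3 under it. These values do not settle whether the numbers mark pairs. The labels give genotype as the only factor, so the numbers were not taken as pairs. With a replicate block on replicates 1 to 3, 8 members were higher and 0 lower, and 549 genes higher and 261 lower over the whole table; without the block on the same libraries 8 members were higher and 0 lower, but Bbc3, Phlda3 and Sesn3 were called only without the block (edgeR adjusted p with it 0.0576, 0.0647 and 0.0577) and Mdm2, Plk2 and Trp53i11 only with it (0.0434, 0.03 and 0.0214).

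No called member changed direction, which for the 10 increases follows from their separate ranges. Among uncalled members, log2 fold changes turned sign within the libraries high in haemoglobin RNA for Trp53 (0.12), Pidd1 (0.26), Plk3 (-0.26), Xpc (0.43), Rps27l (-0.045), Dram1 (0.038) and Fdxr (0.039), and within those low in it for Fas (0.16) and Mdm4 (-0.0036). They also did for Plk3 with the split as a term (-0.11), for Dram1 with RLE (0.0043) and DESeq2 (0.0050), for Xpc (0.0058) and Rps27l (-0.0051) with the replicate block, and for Xpc without it (0.010). With 1 library left out the values spanned -0.11 to 0.014 for Trp53, -0.041 to 0.091 for Mdm4, -0.31 to 0.0064 for Fas, -0.15 to 0.076 for Xpc, -0.096 to 0.26 for Rps27l and -0.052 to 0.023 for Dram1. The cause was not tested. On simulated counts, which held no haemoglobin split, 40% of 2-fold changes were called, so a member not called may have changed by less than this design detects. For members that followed the split, such as Pmaip1, Gadd45a and Plk3, the 40% may not hold.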
